A study of Mus musculus with 58 samples.

Results

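The 10 genes followed here through RNA-seq of whole mouse liver mark neutrophils: S100a8, S100a9, Csf3r, Ngp, Mmp9, Retnlg, Cxcr2, Camp, Ltf and Itgam. Each was taken by its symbol from the table of exon counts, in which all 10 were found among 24537 genes. The series holds 58 libraries from livers of male C57BL6/J mice, 16 young and 42 old. Every mouse received an adeno-associated virus of serotype 8 in which the TBG promoter, which is active in hepatocytes, drives either the red fluorescent protein mApple, as control, or Myc. Every mouse was also gavaged for 30 days, 2 times a day with a break of 2 days at weekends, with vehicle or with 45 mg/kg of ruxolitinib, an inhibitor of Janus kinases. The 6 groups were young mApple with vehicle (6 libraries), young Myc with ruxolitinib (10), old mApple with vehicle (8), old mApple with ruxolitinib (9), old Myc with vehicle (11) and old Myc with ruxolitinib (14). Young mice were 4 months old and were all sequenced in the second of 2 batches. Old mice were 25 months old in the first batch and 24 months old in the second, so batch and age within the old mice cannot be told apart.

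Neutrophils are short-lived granulocytes that mature in bone marrow, circulate, and enter tissue toward chemokines. They make their granule proteins in order: primary granule enzymes in promyelocytes, secondary granule proteins in myelocytes and metamyelocytes, then gelatinase and surface receptors as they mature. Circulating neutrophils carry little mRNA for the early granule proteins. In the resting liver they are few, and Kupffer cells, the resident macrophages of the sinusoids, take up aged ones.

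The 10 genes cover these stages. Ngp (neutrophilic granule protein, chromosome 9, 110419808 to 110423012), Camp (cathelicidin, chromosome 9, 109847377 to 109849456) and Ltf (lactoferrin, chromosome 9, 111019292 to 111042766) encode secondary granule proteins and lie within 1.195 Mb of each other. Mmp9 (chromosome 2, 164948219 to 164955850) encodes the gelatinase of tertiary granules, which macrophages also make. S100a8 (chromosome 3, 90669071 to 90670034) and S100a9 (chromosome 3, 90692630 to 90695721) encode the 2 chains of calprotectin, the main cytosolic protein of neutrophils. Csf3r (chromosome 4, 126024659 to 126044975) is the receptor for granulocyte colony-stimulating factor, and Cxcr2 (chromosome 1, 74153994 to 74161246) is the receptor for the chemokines Cxcl1, Cxcl2 and Cxcl5. Retnlg (chromosome 16, 48872608 to 48874498) encodes a resistin-like secreted protein of mature mouse neutrophils. Itgam (chromosome 7, 128062640 to 128118491) encodes CD11b, the integrin chain that pairs with Itgb2 on neutrophils, monocytes and macrophages. Positions are those of the counted transcripts in mm10.

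The promoters of Ngp, Camp, Ltf and Itgam are shown because the libraries below separate the 3 secondary granule genes from Itgam. They are RefSeq sequences on GRCm38.p6, the 250 bases before the gene start, read in the gene's direction. Capitals mark matches on either strand to TTGCNNAA, a core of sites bound by C/EBP factors, or to GAGGAA, a core bound by PU.1; the 2 motifs share no match here. The C/EBP letters stand in 9.56% of 32851 promoters of this length and the PU.1 letters in 23.3%.
Ngp, + strand, chr9:110419558-110419807: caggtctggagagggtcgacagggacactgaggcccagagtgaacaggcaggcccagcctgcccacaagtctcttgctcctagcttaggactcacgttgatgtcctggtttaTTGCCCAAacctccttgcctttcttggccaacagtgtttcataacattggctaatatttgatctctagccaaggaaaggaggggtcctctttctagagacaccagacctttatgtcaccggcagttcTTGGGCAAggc
Camp, - strand, chr9:109849457-109849706: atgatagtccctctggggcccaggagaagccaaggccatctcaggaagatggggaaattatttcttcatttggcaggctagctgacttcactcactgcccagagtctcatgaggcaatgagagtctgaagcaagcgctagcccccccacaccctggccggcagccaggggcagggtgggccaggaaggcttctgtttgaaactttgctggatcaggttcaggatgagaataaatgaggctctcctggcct
Ltf, + strand, chr9:111019042-111019291: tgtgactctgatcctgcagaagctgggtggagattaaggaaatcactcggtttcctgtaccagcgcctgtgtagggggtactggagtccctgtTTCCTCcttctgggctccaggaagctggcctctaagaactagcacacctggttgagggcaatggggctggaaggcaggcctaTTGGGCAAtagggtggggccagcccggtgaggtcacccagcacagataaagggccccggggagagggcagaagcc
Itgam, + strand, chr7:128062390-128062639: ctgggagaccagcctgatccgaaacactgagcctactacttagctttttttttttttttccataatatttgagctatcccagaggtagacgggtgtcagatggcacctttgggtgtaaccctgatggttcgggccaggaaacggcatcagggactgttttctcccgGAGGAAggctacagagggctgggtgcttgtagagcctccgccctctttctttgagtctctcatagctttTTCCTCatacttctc
Ngp held 2 C/EBP matches, Ltf 1 of each motif, Itgam 2 PU.1 matches, and Camp none in this window. Of the 9 genes with a RefSeq promoter (all but Mmp9), 4 held the C/EBP letters (S100a9, Ngp, Retnlg, Ltf), 5 the PU.1 letters (S100a8, Csf3r, Cxcr2, Ltf, Itgam) and 0 the STAT letters TTCNNNGAA, which stand in 7.02% of promoters. These matches are descriptions of letters, not of bound sites.

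All 10 genes were low in these livers. Libraries held 10.68 to 40.98 M (mega) exon counts, with a median of 14.59 M. Levels are given as CPM (counts per M counts of the library) on a common scale set by edgeR's TMM factors over all 58 libraries. The summed level of the 10 genes ran from 3.22 to 816.9 CPM with a median of 12.57. Set per length, the median over libraries was 3.20 counts per kb per M for S100a8, 3.02 for S100a9, 1.18 for Csf3r, 0.576 for Itgam, 0.481 for Retnlg, 0.321 for Mmp9, 0.145 for Cxcr2, 0.112 for Ngp and 0.0236 for Ltf. The deposited Camp count was 0 in 36 of 58 libraries and 0.5 in 2 more; levels are from counts rounded to whole numbers, which sets those 2 to 0; a count of 0 allows 3 counts, or 0.0785 to 0.287 CPM depending on the library. Ly6g, the surface marker by which mouse neutrophils are usually sorted, reached at most 0.0805 CPM outside the 4 libraries described next. In whole tissue, neutrophil number, RNA per neutrophil and RNA from other cells cannot be told apart. Mmp9 and Itgam are also made by macrophages.

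In the first batch, 4 libraries, all from old ruxolitinib-treated mice, stood far above the other 54 in summed level and differed in makeup. Gene by gene, 10 of the 10 were above all 54 others in 864, 8 in 861, 7 in 868 and 5 in 860. The 4 were picked by the summed level of these same genes, so these counts describe that choice and test nothing. Library 864 (old mApple with ruxolitinib) was rich in calprotectin and secondary granule RNA, with Ngp at 221.3, S100a8 at 208.7, S100a9 at 164.2, Ltf at 65.02 and Camp at 12.68 CPM. Libraries 860 and 861 (old Myc with ruxolitinib) were instead rich in Itgam, at 301.5 and 169.6 CPM, and in Mmp9, at 161.1 and 142.8 CPM. Library 868 (old Myc with ruxolitinib) lay between, with Itgam at 29.98, Csf3r at 17.58, Mmp9 at 11.16, S100a8 at 11.03 and Ngp at 7.92 CPM. The summed levels were 816.9, 529.4, 417.3 and 93.51 CPM for 864, 860, 861 and 868, against 3.22 to 43.87 in the other 54.

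The makeup of the signal differed between these libraries by more than counting error. Ngp, Camp and Ltf together gave 36.6% of the counts of the 10 genes in 864 (95% Wilson interval 35.9 to 37.4%), 11.8% in 868 (10.2 to 13.6%), 2.84% in 861 (2.49 to 3.23%) and 0.42% in 860 (0.315 to 0.56%). Mmp9 and Itgam gave 87.4% in 860 (86.7 to 88%), 74.9% in 861 (73.9 to 75.9%), 44% in 868 (41.4 to 46.5%) and 7.84% in 864 (7.42 to 8.27%). S100a8 and S100a9 gave 45.6% in 864 (44.9 to 46.4%) and 2.95% in 860 (2.65 to 3.29%). In the other 54 libraries the median share was 2.04% for the granule trio (range 0 to 28.2%), 32.1% for Mmp9 and Itgam (18.2 to 49.4%) and 22.7% for the calprotectin pair (9 to 42.2%). These intervals cover counting error only. Per length, S100a8 led in 864 at 539.1 counts per kb per M, followed by S100a9 at 316.3 and Ngp at 191.6, while Itgam at 64.88 and Mmp9 at 50.98 led in 860.

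**Figure D1:**
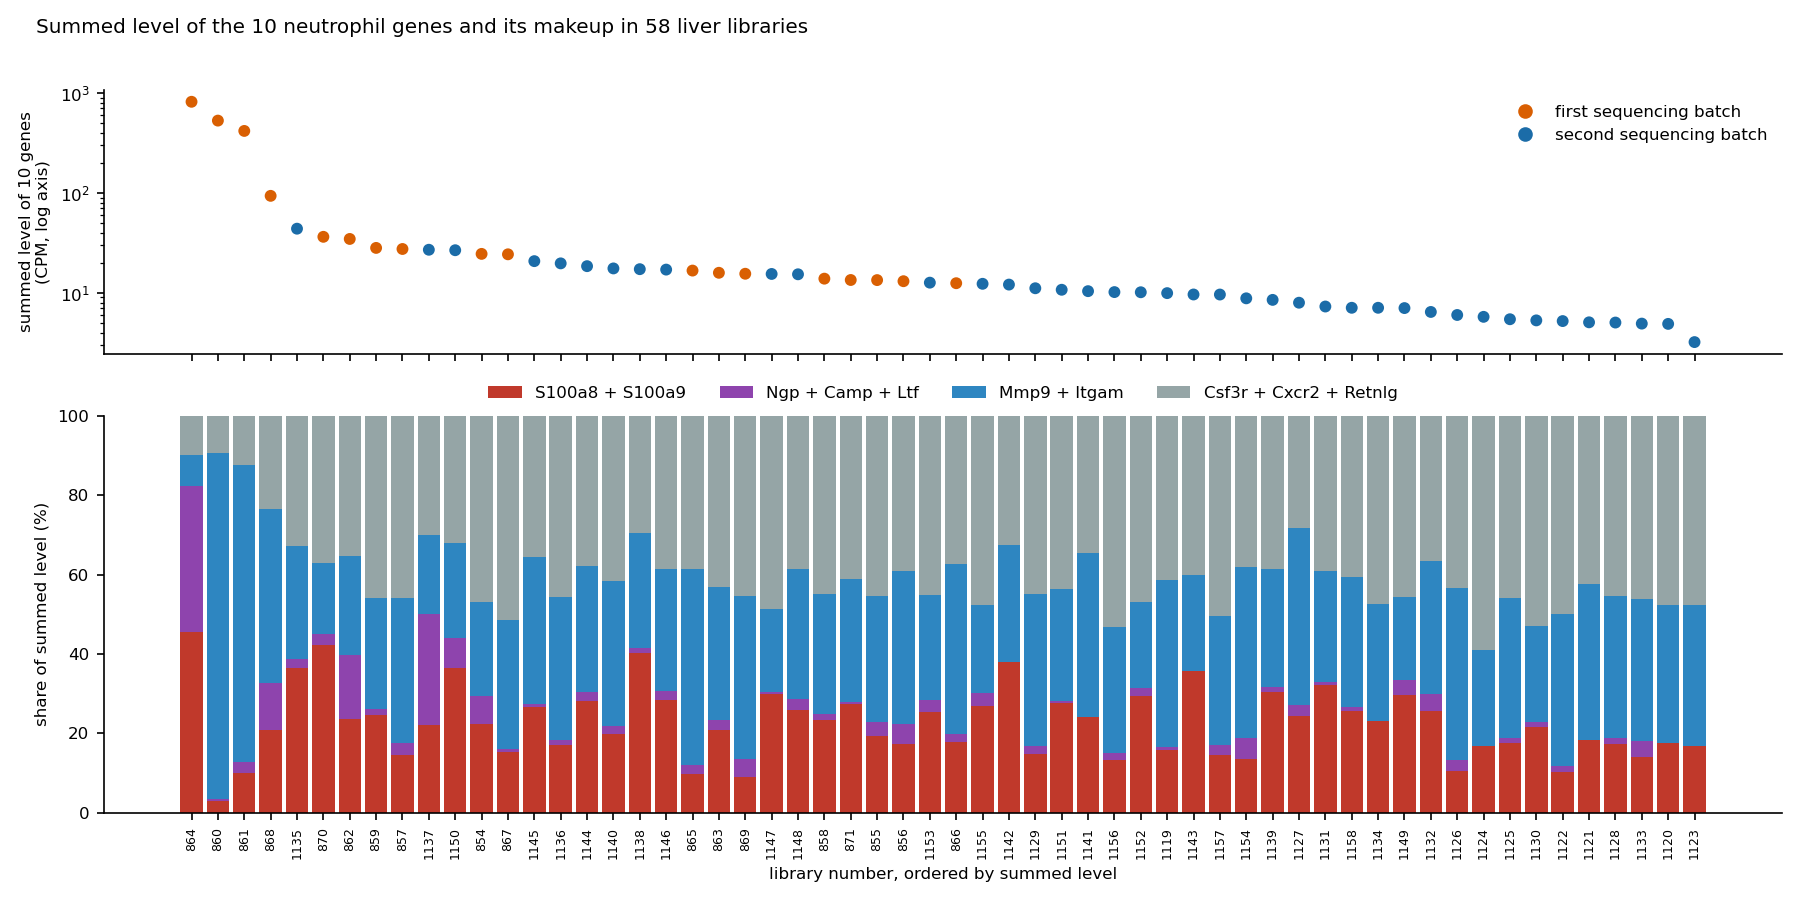
Upper panel: summed level of the 10 genes in CPM (log axis) in each of 58 libraries, coloured by sequencing batch; lower panel: percentage of that level from each of 4 sets of the genes. Library 864 holds the largest summed level, 816.9 CPM, with 36.6% from Ngp, Camp and Ltf, while 860 and 861 hold 87.4% and 74.9% from Mmp9 and Itgam.

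Genes outside the 10 also set these libraries apart. The share of all genes above the other 54 libraries was not computed, so the counts of genes above them have no background. In 864, 5 of 6 primary granule genes were above all 54 other libraries, with the myeloperoxidase gene Mpo at 177.5, the proteinase 3 gene Prtn3 at 62.6, the elastase gene Elane at 37.93, Ctsg at 17.64 and Ms4a3 at 6.44 CPM; Ly6g was at 2.01. Mpo was at 0.774, 5.75 and 2.34 CPM in 860, 861 and 868. In 860 and 861, all 10 Kupffer cell markers were above the other 54 libraries, their sum being 5040 and 3118 CPM against 148.6 to 745. In 864 and 868, 7 and 8 of those 10 markers were, with sums of 1094 and 1130 CPM. Other lists were high too. In 860 and 861, 7 and 8 of 10 monocyte markers were above the other 54 libraries. So were 2 and 6 of 6 T cell markers, and 5 of 7 B cell markers in each. Of 24 mature and activated neutrophil genes outside the 10, 16 and 19 were. In 864, all 6 megakaryocyte and platelet markers were above, but 0 of 6 T cell and 0 of 7 B cell markers. The 4 pan-leukocyte genes (Ptprc, Laptm5, Coro1a, Cd53) summed to 998.7, 802.5, 296.3 and 294.3 CPM in 860, 861, 864 and 868, against 25.08 to 202.6.

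The acute phase genes, which hepatocytes switch on in inflammation, moved with 864 alone of the 4. Their sum was 98280 CPM there, with 12 of 16 genes above the other 54 libraries, against 16540, 19350 and 20110 CPM in 860, 861 and 868 with 0 of 16 above. In the other 54 the sum ran from 10360 to 52710 CPM. Libraries 1149, 1154 and 1158 had sums of 46440, 49610 and 41530 CPM where the 10 genes summed to 7.04, 8.82 and 7.09. Libraries 1137 and 1150 had 52710 and 43830 CPM where the 10 genes summed to 27 and 26.71. Saa1 stood at 9331 CPM in 864, at 64.49, 393.7 and 156.5 in 860, 861 and 868, and at up to 2110 in the other 54. Cxcl1, a ligand of Cxcr2, stood at 90.01 CPM in 864, at 7.69, 7.92 and 7.14 in 860, 861 and 868, and at up to 57.8 in the other 54. Csf3, the ligand of Csf3r, was at 0 in 864. The 10 hepatocyte markers summed to 61460 CPM in 864, 92900 in 860 and 56890 in 861, below the 95140 to 232287 of the other 54, and to 118157 in 868. The part of these cell and acute phase differences in the levels of the 10 genes was not tested.

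Across the 6 groups, both young groups had the lowest medians for S100a8, S100a9, Csf3r, Ngp, Mmp9, Retnlg, Cxcr2 and Itgam. Old mApple with vehicle had the highest median for S100a8, S100a9, Csf3r, Ngp, Retnlg, Cxcr2, Ltf and Itgam. The ranges of neighbouring groups in this order overlapped for every gene.

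S100a8 had a median of 0.574 CPM in young mApple with vehicle (0.253 to 0.743) and of 0.325 in young Myc with ruxolitinib (0.153 to 0.810). It had a median of 2.73 in old mApple with vehicle (1.04 to 7.01), 1.47 in old mApple with ruxolitinib (0.788 to 208.7), 2.13 in old Myc with vehicle (1.19 to 5.89) and 1.18 in old Myc with ruxolitinib (0.313 to 23.66). No library of the old vehicle groups fell within the young ranges. S100a9 gave medians of 0.991 (0.442 to 1.61) and 0.47 (0.147 to 1.16) in the same young groups. Its medians in the old groups, in the same order, were 2.96 (1.07 to 8.96), 1.64 (0.626 to 164.2), 2.69 (1.02 to 9.5) and 1.80 CPM (0.543 to 17.47), and the old and young ranges overlapped.

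Of the receptors, Csf3r had medians of 2.33 CPM in young mApple with vehicle (2.00 to 4.42), 1.96 in young Myc with ruxolitinib (1.53 to 3.53), 7.29 in old mApple with vehicle (3.94 to 11.83), 4.29 in old mApple with ruxolitinib (2.58 to 45.43), 5.86 in old Myc with vehicle (4.08 to 11.29) and 5.02 in old Myc with ruxolitinib (2.20 to 44.03). Cxcr2 followed the same order of groups at a lower level, with medians of 0.298 (0.126 to 0.383), 0.272 (0 to 0.466), 0.752 (0.562 to 1.95), 0.424 (0.250 to 11.25), 0.574 (0.186 to 2.29) and 0.441 CPM (0.0569 to 4.45). All 8 libraries of old mApple with vehicle were above both young groups for Cxcr2. Csf3r in that group overlapped young mApple with vehicle through the young library 1129, at 4.42 CPM.

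The 3 secondary granule genes were at or near 0 in most livers. Ngp had medians of 0.0631 CPM in young mApple with vehicle (0 to 0.164), 0 in young Myc with ruxolitinib (0 to 0.158), 0.396 in old mApple with vehicle (0 to 3.34), 0.125 in old mApple with ruxolitinib (0 to 221.3), 0.191 in old Myc with vehicle (0 to 0.601) and 0.179 in old Myc with ruxolitinib (0 to 8.52). The deposited Camp count was 0 in 10 of 10 libraries of young Myc with ruxolitinib, 5 of 6 of young mApple with vehicle, 8 of 11 of old Myc with vehicle, 5 of 8 of old mApple with vehicle, 4 of 9 of old mApple with ruxolitinib and 4 of 14 of old Myc with ruxolitinib (highest 0.519 CPM). Ltf reached 7.60 CPM in library 1137, old mApple with vehicle, where Ngp and Camp were both at 0. Apart from 1137 and the 4 libraries above, Ltf stayed at or under 1.83 CPM.

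Mmp9 had medians of 0.729 CPM in young mApple with vehicle (0.253 to 0.859), 0.548 in young Myc with ruxolitinib (0.230 to 1.73), 1.78 in old mApple with vehicle (0.963 to 6.09), 1.88 in old mApple with ruxolitinib (0.701 to 26.57), 1.43 in old Myc with vehicle (0.928 to 2.71) and 0.814 in old Myc with ruxolitinib (0.343 to 161.1). Every library of the old vehicle groups was above young mApple with vehicle. Itgam gave, in the same order, 1.28 (0.639 to 3.60), 1.39 (0.919 to 2.63), 4.28 (2.66 to 6.43), 3.16 (1.47 to 37.45), 3.85 (2.32 to 6.13) and 2.57 CPM (1.13 to 301.5). Retnlg medians ran from 0.0789 CPM in young Myc with ruxolitinib (0 to 0.461) to 0.519 in old mApple with vehicle (0.241 to 1.05), with a highest value of 24.3 in 864.

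**Figure D2:**
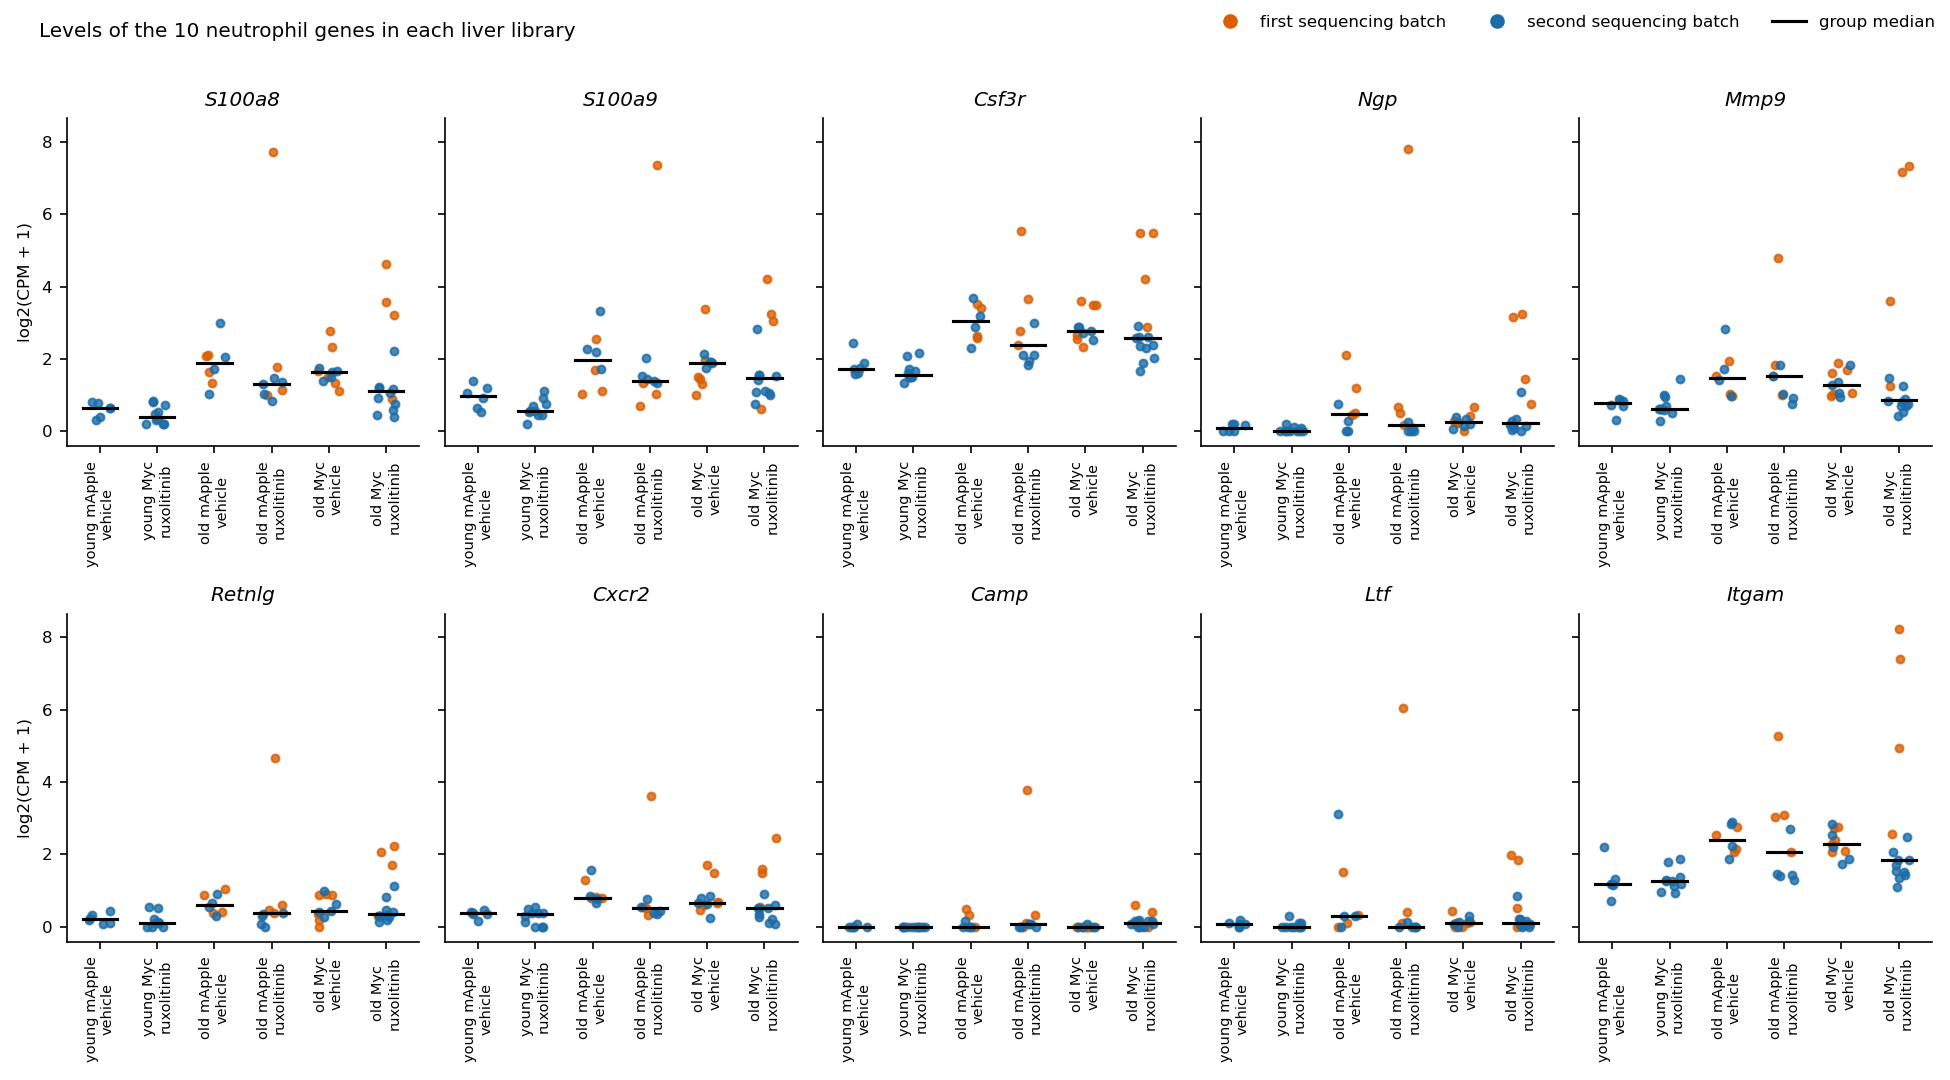
Level of each gene, as log2(CPM + 1), in each library by group; points are libraries coloured by sequencing batch and bars are group medians. In most panels the points far above their groups are 864 in old mApple with ruxolitinib and 860, 861 and 868 in old Myc with ruxolitinib. Library 860 is not among them for Camp, at 0.0484 CPM, or for Ltf, at 0.435 CPM. Library 1137 is high for Ltf in old mApple with vehicle.

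Old livers carried more calprotectin and Csf3r RNA than young livers in both pairs of groups that the second batch allows. Among mice with mApple and vehicle, S100a8 rose by 2.67 ± 0.46 on the log2 scale (SE; adjusted p = 0.0204), S100a9 by 2.26 ± 0.41 (adjusted p = 0.0228) and Csf3r by 1.54 ± 0.30 (adjusted p = 0.0366), by edgeR's quasi-likelihood test with Benjamini-Hochberg adjustment over all genes tested. The 4 old libraries had S100a8 at 7.01, 1.04, 2.33 and 3.13 CPM, all above the 6 young ones (0.253 to 0.743). They had S100a9 at 8.96, 2.33, 3.60 and 3.82 CPM, also above the young range (0.442 to 1.61), and Csf3r at 11.83, 8.18, 6.40 and 3.94 CPM. Mmp9, at 6.09, 0.963, 1.67 and 2.32 CPM against 0.253 to 0.859, did not pass (log2 difference 2.06 ± 0.47, adjusted p = 0.0592). Itgam, at 6.43, 6.18, 3.73 and 2.66 CPM against 0.639 to 3.60, did not either (1.60 ± 0.40, adjusted p = 0.0795).

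Thus 3 of the 5 genes with enough counts to be tested rose and 0 fell, where 0.859% of 13155 genes rose and 1.10% changed in either direction. The median log2 difference of those 5 was 2.06, against 0.00 over all genes. The other 5 were below the count filter, which asks for about 10 counts in enough libraries. S100a8 was at 4 to 12.5 counts in the young libraries and at 13 to 121.5 in the old ones. It thus cleared that filter through the old group, where it is high, and the count of 3 and the median of 2.06 include it. It passed without the filter as well (log2 difference 2.66 ± 0.45, edgeR adjusted p = 0.016). The labels do not say that each library is a separate mouse, so p-values measure the spread between libraries. These calls rest on few libraries in both age groups. Leaving out 1135 (old), or 1130, 1132 or 1133 (young), left 0 genes called. Leaving out 1131 (young) left 1, and leaving out 1129 (young) gave 5. DESeq2 called 6 and limma-voom with quality weights called 5, all higher in old livers, while a single fit of all libraries called 0.

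Among mice with Myc and ruxolitinib, S100a9 rose with age by 1.67 ± 0.37 (edgeR adjusted p = 0.00189) and Csf3r by 0.91 ± 0.18 (adjusted p = 0.000825). S100a9 was at 0.683 to 6.08 CPM in the 10 old libraries (median 1.44) and at 0.147 to 1.16 in the 10 young ones (median 0.47). Csf3r was at 2.20 to 6.48 CPM (median 4.20) against 1.53 to 3.53 (median 1.96). Both pairs of ranges overlapped. Itgam, at 1.13 to 4.63 CPM against 0.919 to 2.63, gave 0.60 ± 0.24 (adjusted p = 0.0559).

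Here 2 of 3 tested genes rose, where 18.1% of 12760 genes rose and 33.7% changed in either direction. Both calls held in each of 20 fits that left out 1 library. S100a9 cleared the count filter mainly through the old libraries, at 12 to 92.5 counts against 2 to 15 in the young ones. It passed without the filter as well (log2 difference 1.67 ± 0.37, edgeR adjusted p = 0.00201). Without the count filter, S100a8 (log2 difference 1.44 ± 0.42, adjusted p = 0.0148), Ngp (2.41 ± 0.82, adjusted p = 0.0367) and Camp (3.45 ± 1.03, adjusted p = 0.026) also passed in edgeR; Camp was at 0 in all 10 young libraries, so its fitted difference is no bound.

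Genes of the other neutrophil lists moved in part with age. Of secondary granule and neutrophil state genes outside the 10, 3 of 15 tested rose in mApple with vehicle: Lcn2, lipocalin 2, which hepatocytes also make (log2 difference 4.43 ± 0.96, edgeR adjusted p = 0.0498), Chil3 (2.57 ± 0.56) and the oxidase subunit Ncf4 (1.66 ± 0.31). In Myc with ruxolitinib 9 of 13 rose, among them Lcn2 (5.06 ± 1.13), Ncf4 (0.78 ± 0.23), Ncf1 (0.56 ± 0.21) and Cebpe (1.10 ± 0.11). In either pair, 0 fell. The list shares Lcn2 and Hp with the acute phase genes, of which 11 of 16 rose in Myc with ruxolitinib. It summed to 1640 to 4090 CPM in young mApple with vehicle, against 4.92 to 11.12 for the 10 genes. Its counts are therefore not those of neutrophil RNA alone. Over all genes tested, 0.859% and 18.1% rose in these pairs. Cebpe was at 2.47 and 3.26 CPM in 860 and 861, below its young mApple vehicle median of 4.89, and at 9.83 in 864. Of mature and activated neutrophil genes outside the 10, 2 of 14 and 4 of 11 rose. Of primary granule genes, 0 of 2 and 0 of 1 rose, and of growth and recruitment cytokines 0 of 3 and 0 of 3. Of ligands and partners of the receptors, Cxcl1 and Icam1, the ligand of the Itgam integrin, were the 2 that rose in both pairs: Cxcl1 by 1.93 ± 0.31 and 1.79 ± 0.31, Icam1 by 0.91 ± 0.18 and 0.71 ± 0.15. Csf3 was at 0 in both young groups and at most 0.0574 CPM in old mApple with vehicle.

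Some markers of other leukocytes rose beside them. Of the monocyte markers, 4 of 9 tested rose in mApple with vehicle, including Ccr2 (log2 difference 1.79 ± 0.29) and F13a1 (2.74 ± 0.37), and 5 of 6 rose in Myc with ruxolitinib, including Plac8 (1.19 ± 0.23). The monocyte list summed to 2236 to 3003 CPM in the 4 old and 1867 to 2598 in the 6 young livers with mApple and vehicle, and to 1360 to 2667 against 1229 to 1967 with Myc and ruxolitinib. Most of these sums is Fn1, which hepatocytes also make. Of the 10 Kupffer cell markers, none passed in the first pair and 4 rose in the second, with sums of 262.6 to 709 against 190.9 to 485.8 CPM and 175.7 to 462 against 148.6 to 325.1 CPM. In mApple with vehicle, 1 of 4 tested T cell markers rose, with 0 of 6 B cell and 0 of 4 dendritic cell markers. In Myc with ruxolitinib, 3 of 3 tested B cell markers and 0 of 1 T cell marker rose. Of 2 tested dendritic cell markers there, 1 rose and 1 fell. Of the 4 pan-leukocyte genes, 1 rose with mApple and vehicle and 2 with Myc and ruxolitinib. They summed to 51.01 to 119.8 CPM in old against 27.86 to 75.06 in young livers in the first pair (medians 71.94 and 36.49). In the second pair the sums were 27.42 to 86.49 against 25.08 to 47.88 CPM (medians 53.85 and 37.06). Of NK and cytotoxic cell markers, 0 of 1 tested rose in the first pair and none was tested in the second. Of the 16 acute phase genes, 1 (Lcn2) and 11 rose. No marker of the monocyte or Kupffer list was at 0 throughout a group, and their part in the rise of S100a8, S100a9 and Csf3r was not tested.

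**Figure D3:**
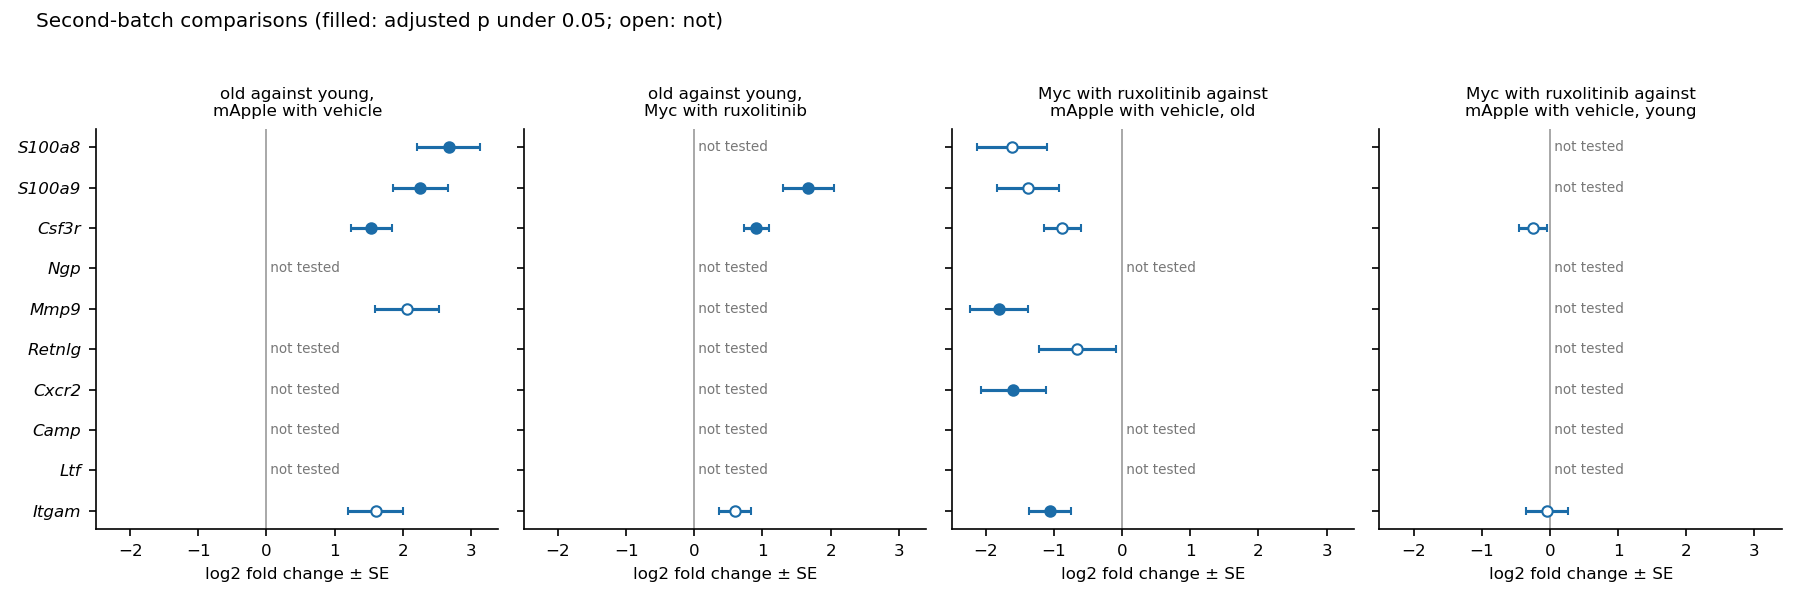
Log2 fold change ± SE of each gene in 4 second-batch comparisons; filled points passed an adjusted p of 0.05 in edgeR, open points did not, and genes below the count filter are marked as not tested. S100a9 and Csf3r are filled and to the right in both comparisons of old with young, and Mmp9, Cxcr2 and Itgam are filled and to the left in the old comparison of Myc with ruxolitinib against mApple with vehicle.

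In old livers of the second batch, Myc with ruxolitinib had less Mmp9, Cxcr2 and Itgam RNA than mApple with vehicle. This comparison changes the vector and the drug together, and it shares its 4 control libraries with the comparison of old with young mApple livers. Mmp9 was at 6.09, 0.963, 1.67 and 2.32 CPM in the 4 mApple vehicle libraries and at 0.343 to 1.79 (median 0.719) in the 10 Myc ruxolitinib ones, a fall by 1.81 ± 0.43 (edgeR adjusted p = 0.0163). Cxcr2, at 1.95, 0.562, 0.800 and 0.695 CPM against 0.0569 to 0.860 (median 0.354), fell by 1.60 ± 0.48 (adjusted p = 0.0442). Itgam, at 6.43, 6.18, 3.73 and 2.66 CPM against 1.13 to 4.63 (median 2.08), fell by 1.06 ± 0.31 (adjusted p = 0.0405). The groups overlapped for all 3 genes.

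S100a8 (log2 difference -1.62 ± 0.51, adjusted p = 0.0546), S100a9 (-1.38 ± 0.46, adjusted p = 0.0637) and Csf3r (-0.88 ± 0.27, adjusted p = 0.0502) did not pass in edgeR. So 3 of 7 tested genes fell and 0 rose, where 4.35% of 13761 genes fell and 10.9% changed in either direction. Cxcr2 cleared the count filter mainly through the mApple vehicle libraries, at 7 to 34 counts, against 1 to 14 in the Myc ruxolitinib ones. The filter thus favoured its being called lower. DESeq2 and limma-voom each called 6. Leaving out 1135 left 0 genes called, with Mmp9 at a log2 difference of -1.07 (adjusted p = 0.145). Leaving out 1150 gave 6 calls, and leaving out 1137, 1151, 1152, 1153, 1155, 1156, 1157 or 1158 left 1. Cxcr2 lost its call in 12 of 14 such fits and Itgam in 10. Without the count filter, Ltf also passed as lower (-4.09 ± 1.02, edgeR adjusted p = 0.0235), on levels that include 7.60 CPM in 1137, and Cxcr2 did not. Of the monocyte markers 1 of 10 fell (F13a1), and no Kupffer or pan-leukocyte marker passed in edgeR; the pan-leukocyte sum was 51.01 to 119.8 CPM against 27.42 to 86.49.

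In young livers the same contrast gave no call: 0 of 2 tested genes changed (0 at an unadjusted p under 0.05), where 27.5% of 12808 genes did. Csf3r was at 2.00 to 4.42 CPM with mApple and vehicle and at 1.53 to 3.53 with Myc and ruxolitinib (log2 difference -0.24 ± 0.20, edgeR adjusted p = 0.404). DESeq2 and limma-voom called 0 too, and leaving out young library 1133 gave 1. Whether the contrast differed between ages was tested as an interaction: 0 of 5 tested genes passed in edgeR (2 at an unadjusted p under 0.05), where 0.287% of 13609 genes did. The nearest were Mmp9 (log2 difference of differences -1.91 ± 0.57, adjusted p = 0.12) and Itgam (-1.02 ± 0.46, adjusted p = 0.313). DESeq2 called 0 of these, and limma-voom called both, with adjusted p of 0.017 for Mmp9 and 0.0319 for Itgam.

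Ruxolitinib alone gave no call in old livers when both batches were fitted together with the count filter, and the sign of the fitted differences was opposite in the 2 sequencing batches. With Myc, 3 genes passed in the first batch alone, and Camp passed over both batches without the filter (3.50 ± 0.80, edgeR adjusted p = 0.0358). With mApple and both batches, 0 of 6 tested genes changed (0 at an unadjusted p under 0.05), where 0.405% of 13324 genes did. S100a8 gave a log2 difference of 1.49 ± 1.29 (edgeR adjusted p = 0.714), and -1.11 ± 0.33 (adjusted p = 0.198) once 864 was left out. In the second batch alone, S100a8 was at 1.04 to 7.01 CPM in the 4 vehicle libraries and at 1.06, 1.56, 0.788, 1.47 and 1.81 in the 5 ruxolitinib libraries (-1.37 ± 0.46, adjusted p = 0.395). In the first batch alone, the 4 vehicle libraries had 3.22, 1.53, 3.34 and 2.14 CPM, and the 4 ruxolitinib libraries had 1.20, 2.46, 208.7 and 1.001 CPM. The fitted difference there was 4.41 ± 1.65 (adjusted p = 0.246), with 3 of the 4 ruxolitinib libraries within or below the vehicle range. Itgam gave 0.31 ± 0.55 over both batches, -0.99 ± 0.44 in the second and -0.34 ± 0.34 without 864.

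With Myc and both batches, 0 of 5 tested genes changed with the drug (1, Mmp9, at an unadjusted p under 0.05), where 0.514% of 13428 genes did. Mmp9 gave a log2 difference of 2.09 ± 0.94 (edgeR adjusted p = 0.321), Itgam 1.59 ± 0.78 (adjusted p = 0.354) and S100a8 0.41 ± 0.49 (adjusted p = 0.699). In the first batch alone, Mmp9 was at 161.1, 142.8, 11.16 and 1.40 CPM with ruxolitinib and at 0.957 to 2.71 with vehicle. There 3 of 7 tested genes rose, where 5.92% of 13476 genes rose and 6.73% changed in either direction: Mmp9 (5.60 ± 0.998, adjusted p = 0.0259), Itgam (4.94 ± 0.83, adjusted p = 0.0247) and Csf3r (1.92 ± 0.49, adjusted p = 0.0411).

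In the second batch alone, all 6 tested genes had lower fitted levels with ruxolitinib and none passed. Mmp9 gave -0.91 ± 0.33 (adjusted p = 0.402), Itgam -0.75 ± 0.29 (adjusted p = 0.428) and S100a8 -0.85 ± 0.41 (adjusted p = 0.523). Without 860, 861, 864 and 868, Mmp9 gave -0.79 ± 0.30, Itgam -0.54 ± 0.24 and S100a8 -0.99 ± 0.39 over both batches, again with 0 calls. DESeq2 and limma-voom called 0 genes in either vector. Kupffer cell markers and markers of other leukocytes moved with the first-batch rise, as given above for 860 and 861. Their part was not tested, and the difference between batches itself was not tested.

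**Figure D4:**
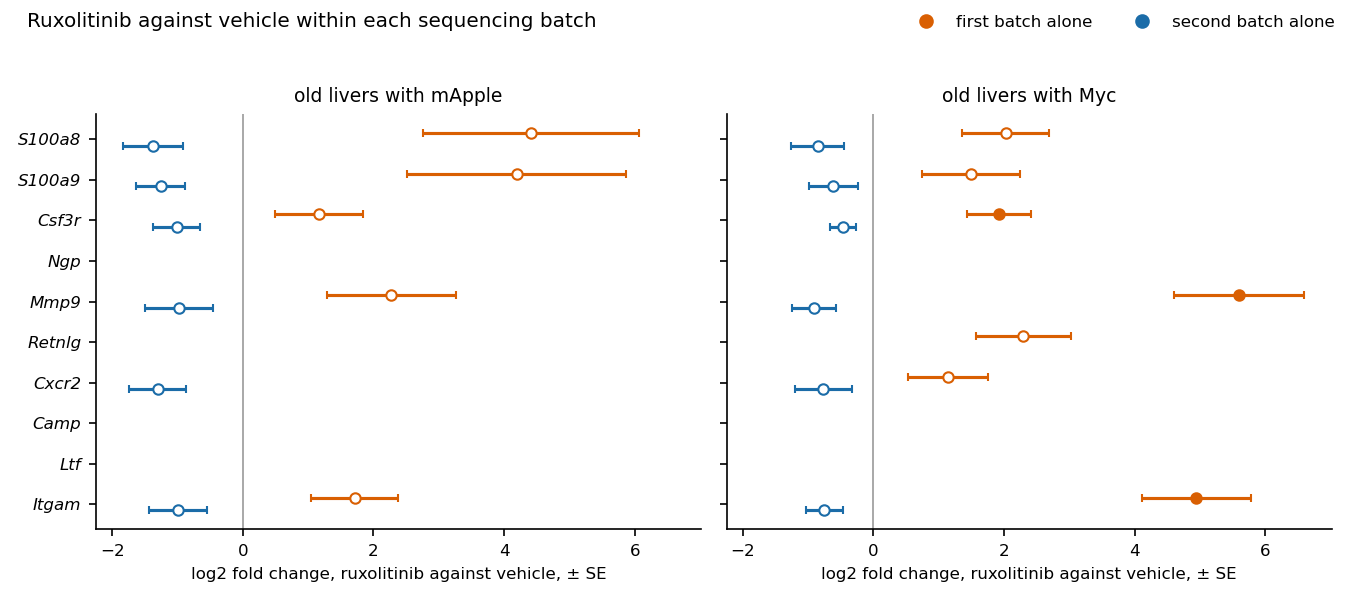
Log2 fold change ± SE of ruxolitinib against vehicle in old livers, fitted in each sequencing batch alone, for the genes above the count filter; filled points passed an adjusted p of 0.05. First-batch points lie right of 0 and second-batch points left of it, and only Csf3r, Mmp9 and Itgam with Myc in the first batch are filled.

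Myc against mApple gave no call among these genes in old livers when each pair of groups was fitted with the count filter. A single fit of all 58 libraries called 1 of 9 tested with vehicle (Ltf, lower) and 5 of 9 with ruxolitinib (S100a8, S100a9, Ngp and Ltf lower, Itgam higher). The Myc gene itself stood at 25.71 to 132.2 CPM in 10 of the 11 libraries labelled old Myc with vehicle and at 6.85 in the other, 870, against 2.93 to 56.81 in old mApple with vehicle; without 870 the vehicle comparison again called 0 of 6 genes in edgeR (1 at an unadjusted p under 0.05). With vehicle, 0 of 6 tested genes changed (0 at an unadjusted p under 0.05), where 18.9% of 13373 genes did; S100a8 gave a log2 difference of -0.34 ± 0.32 (edgeR adjusted p = 0.501) and Csf3r -0.21 ± 0.23 (adjusted p = 0.556). Without the count filter, Camp (-2.79 ± 0.87, adjusted p = 0.0371) and Ltf (-3.43 ± 0.91, adjusted p = 0.0147) passed as lower with Myc, on deposited Camp counts above 0 in 3 of 8 mApple and 3 of 11 Myc libraries (2 of the latter at 0.5, rounded to 0) and on Ltf levels that include 1137. With ruxolitinib, 0 of 5 tested genes changed (0 at an unadjusted p under 0.05), where 14.5% of 13661 genes did. S100a8 gave -1.22 ± 0.80 (adjusted p = 0.323), turning to 0.70 without 864, and Itgam gave 1.26 ± 0.66 (adjusted p = 0.208), turning to -0.11 without 860, 861, 864 and 868. The interaction of vector and drug called 0 of 8 tested genes and 0 of 13963 genes in all (0% called; 734 at an unadjusted p under 0.05, of these genes 1, Mmp9); DESeq2 called 2 genes, neither among the 10, and limma-voom 0.

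Across the 58 libraries the 10 genes ranked alike to different degrees, with Spearman correlations given as descriptions over libraries that share groups and batches. Csf3r and Itgam gave 0.889 (0.863 over the 54 libraries without 860, 861, 864 and 868) and S100a8 and S100a9 gave 0.864 (0.832). S100a8 and Cxcr2 gave 0.827 (0.787). Camp was least like the others, from 0.199 with Mmp9 (0.00543 without the 4 libraries) to 0.462 with Ngp (0.329). Its neighbours on chromosome 9, Ngp and Ltf, gave 0.51 with each other (0.398).

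Among 13664 other genes with a mean of at least 0.5 CPM, the 15 whose levels ranked most like the summed level of the 10 were led by the Src family kinase gene Fgr (Spearman 0.924), the NADPH oxidase subunit Ncf1 (0.919), the lysosomal protease Lgmn (0.91), Icam1 (0.903) and Emilin2 (0.901). Itgb2, the partner chain of Itgam, stood at 0.89, the oxidase subunit Ncf4 at 0.889 and the lysozyme gene Lyz2 at 0.885. Cd300lf, Kcnab2, B430306N03Rik, Plac8, Myo1g, Adap1 and Ccl6 made up the rest, between 0.883 and 0.896. All 15 were named again without 860, 861, 864 and 868, and 7 of 15 by Pearson's r on log2(CPM + 1). Lyz2, Itgb2, Lgmn and Ncf1 are also expressed by macrophages and monocytes.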

How the data were processed

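Polyadenylated RNA from 58 whole livers was sequenced in 2 batches. The authors deposited one table of exon counts per gene, made with STAR and HOMER on GRCm38 (mm10) per the submitters' processing notes; versions and the strand setting of the counting are not given in the sources used here. The deposited values are estimated counts in steps of 0.5, with 29.9% of values not whole, and were rounded to whole numbers before testing and for levels. Groups, ages and library numbers came from the labels.

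Comparisons used edgeR 4.0.16 in R 4.3.3: TMM factors, filterByExpr with a minimum count of 10, glmQLFit and glmQLFTest, and Benjamini-Hochberg adjustment over all genes tested with a threshold of 0.05. Old groups spanning both batches were fitted with a batch term, and comparisons that involve young livers or change vector and drug together used the second batch alone. Standard errors were derived from the log2 fold change and its F statistic (the absolute change over the root of F). Levels are CPM with TMM factors over all libraries and no filter. Depth was 10.68 to 40.98 M counts, at which 3 counts equal 0.0785 to 0.287 CPM. The script was tested on simulated data with known changes. Alternatives were DESeq2 1.42.0, limma 3.58.1 (voom with quality weights), RLE factors, no filter, robust dispersion, other batch handling, a single fit of all libraries, and libraries left out; leaving out 860, 861, 864 and 868 together was chosen after seeing the data. Promoters were RefSeq sequences on GRCm38.p6.

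The members and lists were chosen with earlier results of these data known. All 10 genes were named in every comparison; from each list, at most 3 genes past the threshold with the smallest p; Ptprc, Mpo, Lcn2, Ly6g, Csf3, Cxcl1, Cxcl2 and Itgb2 by library; and the 15 genes most like the summed level. Elane, Prtn3, Ctsg, Ms4a3, Saa1 and other genes outside that rule were named after their values were seen.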

Additional observations from a re-analysis of the deposited data

Results flagged for a closer look

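In groups of 4 to 10 libraries, a library whose gap to its nearest neighbour exceeds Dixon's 95% critical value was picked out. Chance flags about 1 in 20 independent groups, and 16 of 44 were picked here. The 44 share libraries and are not independent, so 16 of 44 cannot be read against 1 in 20. Camp in young mApple with vehicle was at 0 in 5 of 6 libraries, so 1 count in 1130 was enough to be picked. Library 864 was picked in old mApple with ruxolitinib for all 10 genes: S100a8 208.7, S100a9 164.2, Csf3r 45.43, Ngp 221.3, Mmp9 26.57, Retnlg 24.3, Cxcr2 11.25, Camp 12.68, Ltf 65.02 and Itgam 37.45 CPM, and for their sum, 816.9 CPM. In young mApple with vehicle, 1129 was high for Csf3r at 4.415 CPM, 1133 was low for Mmp9 at 0.2525 CPM, and 1130 was high for Camp at 0.0639 CPM. In young Myc with ruxolitinib, 1126 was high for Ngp at 0.1581 CPM and 1127 for Ltf at 0.2321 CPM; these and the Camp value are at or under the level of 3 counts. The groups of 11 and 14 libraries, which hold 860, 861 and 868, were not examined this way.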

How the results depend on the processing

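No paired analysis was possible because the library numbers in the labels are unique and no replicate number is shared between groups. Depth limits Ngp, Camp and Ltf, which were mostly under 3 counts a library. A single fit of all 58 libraries, which takes in 860, 861, 864 and 868, turned the old difference between Myc with ruxolitinib and mApple with vehicle to 0.2425 for Csf3r, 1.611 for Mmp9 and 1.704 for Itgam (log2), its interaction with age to 1.519 for Mmp9 and 1.741 for Itgam, and the mApple drug difference of Itgam to -0.04634. For ruxolitinib with mApple, S100a8 and Itgam turned to -0.8669 and -0.3938 in limma-voom, -1.37 and -0.9902 in the second batch alone, -1.057 and -0.489 without 860, 861, 864 and 865, and -1.11 and -0.3417 without 860, 861, 864 and 868, as without 864 alone; with any 1 library left out they ran from -1.11 to 2.208 and from -0.3417 to 0.5044. For ruxolitinib with Myc, S100a8, Mmp9 and Itgam turned to -0.8171, -0.1928 and -0.08535 in limma-voom, -0.8549, -0.9082 and -0.7501 in the second batch alone, and -0.9851, -0.7879 and -0.539 without 860, 861, 864 and 868; S100a8 turned to -0.1412 without 860, 861, 864 and 865. For Myc against mApple, S100a8 turned to 0.1161 with vehicle in the first batch alone, and with ruxolitinib to 0.2014 without 860, 861, 864 and 865 and 0.7011 without 864 (-1.419 to 0.7011 with any 1 library left out); Itgam with ruxolitinib turned to -0.06409 in the second batch alone and -0.1131 without 860, 861, 864 and 868. The cause of these reversals was not tested.

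Counts of the 10 genes past the threshold moved as follows. For age with mApple and vehicle the count of 3 became 6 in DESeq2, 5 in limma-voom and 0 in the single fit, and 0 to 5 with 1 library left out; over all genes 145 became 666 in DESeq2 and 1640 in limma-voom. For age with Myc and ruxolitinib the count of 2 became 4 in DESeq2 and 5 without the filter, and 2 to 3 with 1 library left out. For old Myc with ruxolitinib against mApple with vehicle the count of 3 became 6 in DESeq2, 6 in limma-voom and 0 in the single fit, and 0 to 6 with 1 library left out; over all genes 1496 became 2832 in limma-voom and 3349 in the single fit. The same contrast in young livers gave 0 to 1 with 1 library left out. The interaction with age gave 2 in limma-voom, and over all genes 39 became 198 in DESeq2 and 597 in limma-voom. Ruxolitinib with Myc gave 1 without the filter (Camp) and 3 in the first batch alone; over all genes 69 became 177 in DESeq2, 320 in the single fit and 907 in the first batch. Ruxolitinib with mApple called 54 genes, and 141 in DESeq2. Myc against mApple gave 2 without the filter and 1 in the single fit with vehicle, and 5 in the single fit with ruxolitinib (1 higher, 4 lower). Of the 15 most similar genes, Pearson's r named 7. Of 202 other recomputed log2 differences 147 kept their direction and side of the threshold, as did 410 of 463 with 1 library left out.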
